A study of Mus musculus with 36 samples.

Results

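The livers of SJL mice 3 h after an acetaminophen overdose were compared with those of SMJ, DBA and C57 mice at the same time. All 3 livers labelled as SJL at 3 h were taken, together with all 9 livers of the other 3 strains at 3 h, which makes 12 of the 36 arrays of the series. Acetaminophen relieves pain and fever, and an overdose damages the liver. Every mouse had been fasted overnight for more than 16 h, and the dosed mice were injected intraperitoneally with 300 mg/kg of the drug. The groups used here were SJL, SMJ, DBA and C57 at 0 h, 3 h and 6 h, with 3 livers in each of the 12, and the 0 h mice had not been dosed. Each array held the liver RNA of 1 mouse, named by strain and number, as SJL39. The series calls SJL resistant to acetaminophen injury and the other 3 strains sensitive. With 1 resistant strain, resistance and every other trait of SJL cannot be told apart. No mice given vehicle alone were part of the 3 h or 6 h groups, and the labels used here give neither sex nor age.

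Acetaminophen is turned by cytochrome P450 enzymes, Cyp2e1 among them, into a reactive quinone imine that glutathione binds. When glutathione runs out the quinone imine binds proteins, above all in the hepatocytes around the central vein, and dying cells release signals that draw in neutrophils and monocytes. A fasted liver burns fatty acids, a programme driven in large part by the nuclear receptor PPARA, whose targets include the enzymes of mitochondrial and peroxisomal β-oxidation, lipid droplet proteins and the hormone Fgf21. Inflammatory signals act on hepatocytes through NF-κB and STAT3 and raise chemokines, adhesion molecules and acute phase proteins.

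Values are MAS5 signals, a linear array intensity with no fixed unit, and a difference is the SJL mean minus the equally weighted mean of the 3 other strains on the log2 scale, after an offset of 2.77 was added to every signal. A gene is called higher or lower when its limma p, adjusted by the method of Benjamini and Hochberg over 13981 genes, is under 0.05. The hepatocyte protein Alb had signals of 13439, 15027 and 16662 in the 3 SJL livers and between 12168 and 21735, with a median of 15942 in the other 9, so the arrays carry liver RNA in all strains. Across genes, the 3 SJL arrays correlated with each other at 0.914 to 0.944, against 0.946 to 0.962 within the other 3 h groups, and SJL39 stood furthest from its group. The median SD across genes was 0.34 log2 units in SJL at 3 h, against 0.22 in SJL at 0 h and 0.24, 0.22 and 0.20 in SMJ, DBA and C57 at 3 h. The fit shares 1 estimate of spread over all groups, so the fit was repeated with an array weight for each group, which lowers the weight of SJL at 3 h to 0.485, and with the 12 arrays at 3 h alone. Counts from the weighted fit, and others that differ, are given beside most list counts. Each list count stands against the share of all genes, 8.59% higher and 8.88% lower at 3 h. The lists were chosen with earlier results of these data known. The p-values of the shared fit set a difference against the spread between mice of the same group, pooled over all 12 groups. SJL at 3 h had the widest median SD of the 12, so the pooled spread understates its own in the typical gene. Livers were bulk tissue, so fewer cells of a type and less RNA per cell cannot be told apart.

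At 3 h, 1201 genes (8.59% of those tested) were higher and 1242 (8.88%) lower in SJL than in the mean of the other strains. A change of scaling to the 75th percentile moved this split to 961 higher and 1523 lower. With group weights the counts were 486 and 627, all of them among the genes called in the shared fit, and with the 12 arrays alone 658 and 784. In 441 of the genes called higher (3.15% of those tested) all 3 SJL livers lay above all 9 others, and in 521 of those called lower (3.73%) all 3 lay below. Differences of at least 2-fold numbered 278 higher and 324 lower. Against each strain singly, SJL differed in 1656 genes (11.8%) from SMJ, 2334 (16.7%) from DBA and 2439 (17.4%) from C57. Of the 13981 genes, 217 were called higher and 353 lower in all 3 of these comparisons and in the comparison with the mean. All of these comparisons share the 3 SJL livers, so their overlap is no result. The counts against single strains lean on the spread shared over 36 arrays. With only the 6 arrays of each pair fitted, 31 genes were higher and 51 lower against SMJ, 87 and 149 against DBA, and 135 and 206 against C57. The other strains, each set against the mean of the remaining 3 at 3 h, gave 1265 genes (9.05%) for SMJ, 1787 (12.8%) for DBA and 1640 (11.7%) for C57, and the same contrast for SJL gave 2443 (17.5%). The order of the strains depends on the fit. With the 12 arrays alone the counts were 1442 for SJL, 496 for SMJ, 774 for DBA and 776 for C57, and with group weights 1113 for SJL, 1261 for SMJ, 2028 for DBA and 2154 for C57.

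Part of the 3 h difference was already there before dosing. The 0 h comparison uses other mice, and in it 877 genes (6.27%) were higher and 812 (5.81%) lower in SJL. Of the 1201 genes higher at 3 h, 324 were also higher at 0 h, which is 27.0% of the 3 h list and 36.9% of the 0 h list. Of the 1242 genes lower at 3 h, 367 were also lower at 0 h, or 29.5% and 45.2%. The strain difference at 3 h was itself tested against that at 0 h, a test that shares the 3 h arrays with the calls at 3 h. It called 644 genes (4.61%), 309 upward (2.21%) and 335 downward (2.4%). Of the 1201 genes higher at 3 h, 172 had no call at 0 h and an upward difference between the times, and 678 had a call in neither. Of the 1242 genes lower at 3 h, 673 had a call in neither. At 6 h, again in other mice, 877 genes (6.27%) were higher in SJL and 652 (4.66%) lower, and these held 347 of the 1201 and 323 of the 1242. With group weights the totals were 2279 at 0 h, 1867 at 6 h and 347 between the times. The counts at 0 h and 6 h rest on few mice. The 0 h total was 992 without SJL1, 1029 without SJL2 and 1051 without SJL4, the 6 h total 873 without SJL44 and 916 without SJL45, and the count between the times 410 without SJL1 and 411 without SJL2.

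**Figure D1:**
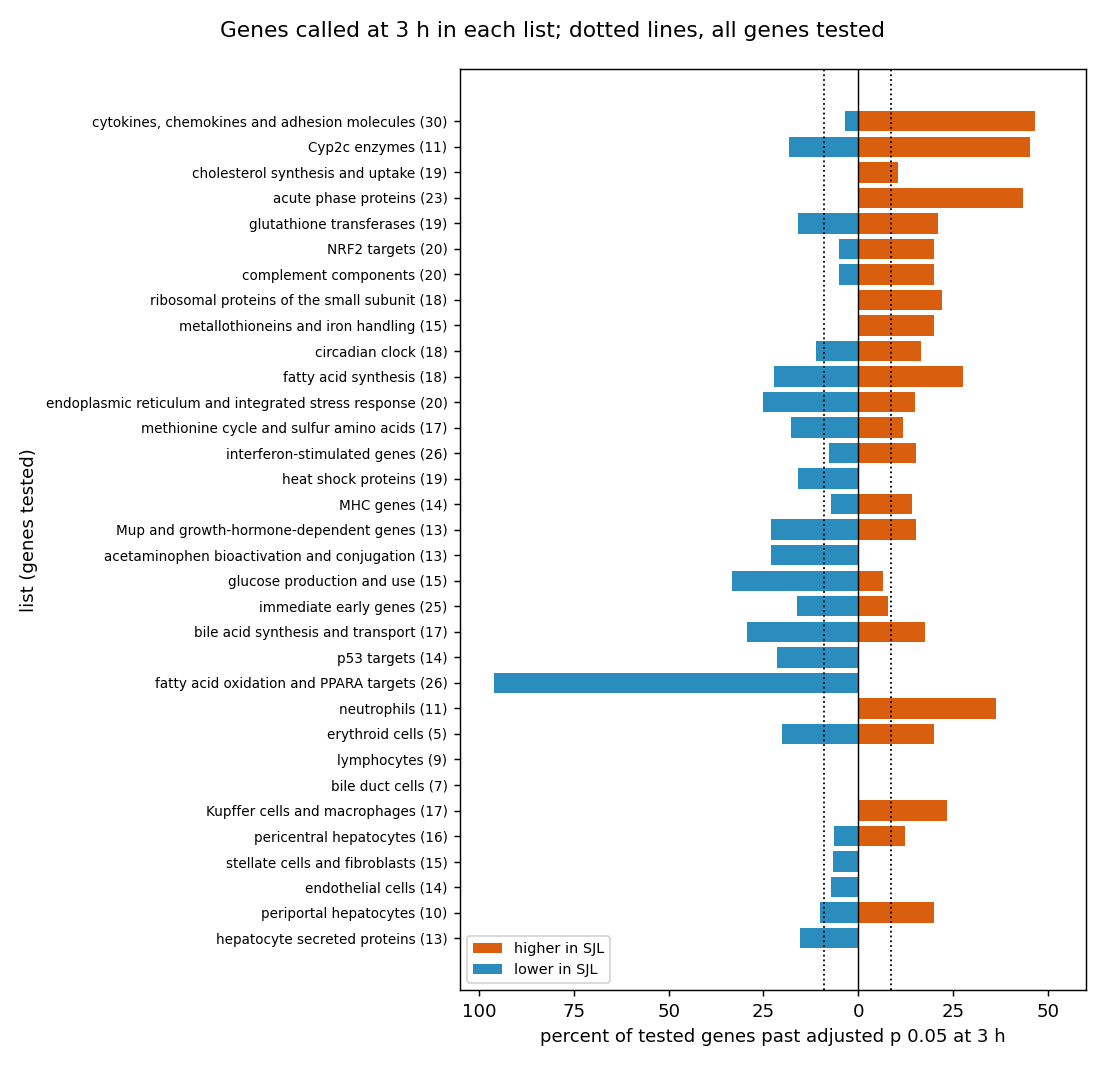
Share of each list's tested genes that were called higher (right) or lower (left) in SJL than in the mean of SMJ, DBA and C57 at 3 h, with the number of genes tested in brackets. Gene lists stand above cell type markers, both ordered by their median difference, and dotted lines mark the shares over all 13981 genes, 8.59% higher and 8.88% lower. Fatty acid oxidation, with 25 of 26 genes lower, lies furthest from the lines. The lists were chosen with earlier results of these data known, so their order is a description.

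Genes of fatty acid oxidation and other PPARA targets were lower in the SJL livers almost without exception. Of 29 genes written in this list 26 were tested, 25 were lower at 3 h (8.88% of all genes), none was higher, and all 26 differences were below 0, with a median of -1.02 against 0.03 over all genes. In 21 of them the 3 SJL livers lay below all 9 others, as in 4.07% of all genes. The count was 23 without SJL39, 24 without SJL40 and 26 without SJL42, 23 with group weights and 22 with the 12 arrays alone. Acaa2, the mitochondrial thiolase, was the member not called, with a difference of -0.22 (limma adjusted p = 0.0645). The calls for Acot3, Acaa1a and Ppara were lost without SJL39. Set against each strain singly, 19 of the 26 genes were lower than in SMJ (6.41% of all genes), 26 than in DBA (8.11%) and 24 than in C57 (8.61%).

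Entry of fatty acids into mitochondria was covered by 3 genes, all lower. Cpt1a, the liver carnitine palmitoyltransferase that sets the rate of entry, had signals of 2812, 4251 and 3645 in SJL39, SJL40 and SJL42, and between 5054 and 7248, with a median of 6167, in the other 9 livers. No SJL liver reached the lowest of the others, and the difference was -0.76 ± 0.10 (SE; limma adjusted p = 5.18e-06). Slc25a20, the carrier that takes acylcarnitines across the inner membrane, differed by -0.99, and Cpt2, which turns them back into acyl-CoA inside, by -1.01.

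Of the enzymes of the mitochondrial spiral, Acadl, Acadvl, Acadm, Hadha and Hadhb were each lower by less than 1 log2 unit, and Acaa2, as above, was not called. Acadl, the long-chain acyl-CoA dehydrogenase, had 2659, 2674 and 2885 in the 3 SJL livers and between 3827 and 5309.7, with a median of 4803 in the other 9. The ranges were apart, and the difference was -0.75 ± 0.08 (SE; limma adjusted p = 1.07e-07). The very-long-chain and medium-chain dehydrogenases Acadvl and Acadm differed by -0.46 and -0.52, and Hadha and Hadhb, the subunits of the trifunctional protein, by -0.69 and -0.88. In each of these 4 genes the SJL livers also lay below all others.

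Among peroxisomal and microsomal enzymes, Ehhadh, the bifunctional enzyme of peroxisomal β-oxidation, had signals of 2826, 3200.2 and 3749 in SJL and between 9203 and 16080.4, with a median of 11174, elsewhere. The highest SJL liver thus stayed under the lowest of the others, and the level was 3.68-fold lower (difference -1.88 ± 0.13, SE; limma adjusted p = 1.51e-10). The peroxisomal thiolases Acaa1b and Acaa1a differed by -0.94 and -0.48. The ω-hydroxylases Cyp4a31 and Cyp4a14 differed by -2.79 and -1.02, and in Cyp4a14 SJL39 had 3313 while SJL40 and SJL42 had 10298 and 10318, against at least 11499.7 in the others. The acyl-CoA thioesterases Acot2, Acot1, Acot3 and Acot4 differed by -2.34, -2.30, -1.62 and -0.88. Probe sets of close copies such as the Acot and Cyp4a genes may bind each other's RNA, so these are not independent measurements.

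Several of the widest differences of the list lay in lipid droplet proteins, secreted regulators and Vnn1. Plin2, which coats lipid droplets, had 2779, 2644 and 4120.0 in SJL and between 9023 and 13781, with a median of 10558 in the other livers, a 3.49-fold lower level with no overlap (limma adjusted p = 4.48e-11). Cidec, which enlarges droplets, had 39.9, 31.6 and 57.4 in SJL against 177 to 1270.5 elsewhere and was 13.0-fold lower. Vnn1, a pantetheinase, had 83.2, 241 and 335 in SJL and between 3175 and 6165, with a median of 4704 in the others, a 24.3-fold lower level.

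Fgf21, a fasting hormone made by the liver, spread widely among the strains. Its signals were 40.3, 215 and 496 in SJL, and the means were 703 ± 124 in SMJ, 4944 ± 1081 in DBA and 1658 ± 415 in C57 (SD, n = 3 each). SJL was the lowest strain, and the differences were -2.06 from SMJ, -4.86 from DBA and -3.28 from C57, each past the threshold. G0s2, which inhibits the triglyceride lipase of droplets, was about as low in SMJ as in SJL. It had 26.5, 136 and 201 in SJL, 187, 191 and 165 in SMJ, and 2237 to 4474 in DBA and C57, and its difference from SMJ alone was -0.97 (limma adjusted p = 0.245). Pdk4, which shuts off pyruvate dehydrogenase in fasting, was 8.29-fold lower than the mean of the other strains. Angptl4, an inhibitor of lipoprotein lipase, was dim, with 8.54, 0.503 and 27.0 in SJL and between 13.5 and 98, with a median of 46.9 elsewhere. Its SJL signals lay under the filter of 30.8, so no fold is given, and its call was lost without SJL40. Ppara itself differed by -0.86, a call lost without SJL39 and with group weights (limma adjusted p = 0.0874). Its level was high in DBA, and SJL alone against SMJ or C57 gave -0.59 and -0.30, neither called.

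**Figure D2:**
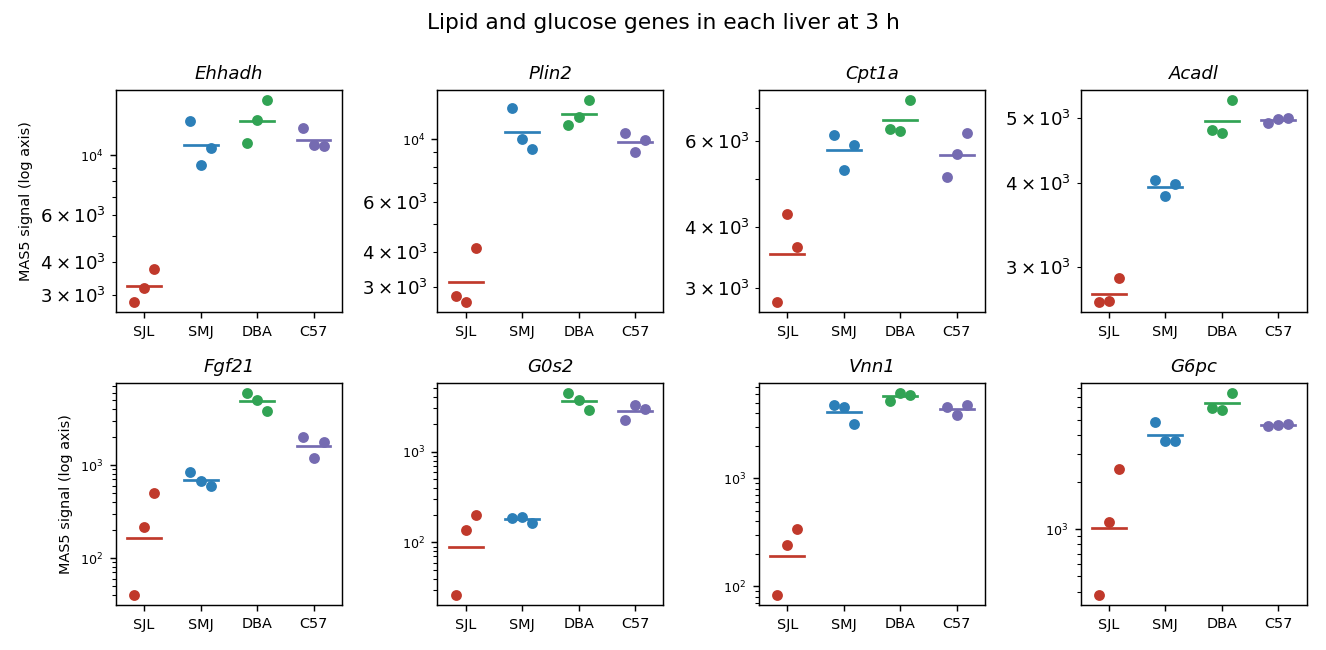
MAS5 signal (log axis) of 8 lipid and glucose genes in each of the 12 livers at 3 h, by strain, with bars at the mean of the log2 values. The 3 SJL livers lie below all 9 others in every panel except that of G0s2, where they lie beside the 3 SMJ livers.

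For most of these genes the strain difference was larger at 3 h than before dosing. At 0 h, 8 of the 26 genes were lower in SJL (5.81% of all genes) and none higher, with a median of -0.17. At 6 h 4 were lower (4.66% of all genes), with a median of -0.20 (Vnn1, Cyp4a31, Hadha and Hadhb). The difference at 3 h was below that at 0 h in 20 of the 26 (2.4% of all genes) by the test between the times. Ehhadh averaged 9067 ± 1997, 3258 ± 464 and 7958 ± 270.1 in SJL at 0 h, 3 h and 6 h (SD, n = 3 each). Its mean lay between 7598 and 13623 in the other strains over the same times, and the strain difference was -0.19, -1.88 and -0.34 in turn, called only at 3 h. Plin2 averaged 6569 ± 557, 3181 ± 816 and 12218 ± 461 in SJL, and its difference was -0.43, -1.80 and -0.09, called at 0 h and 3 h. Vnn1, Cidec, Pdk4, Cyp4a31, Acot1, Acot2, Acot4 and Plin2 were the 8 genes lower before dosing.

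**Figure D3:**
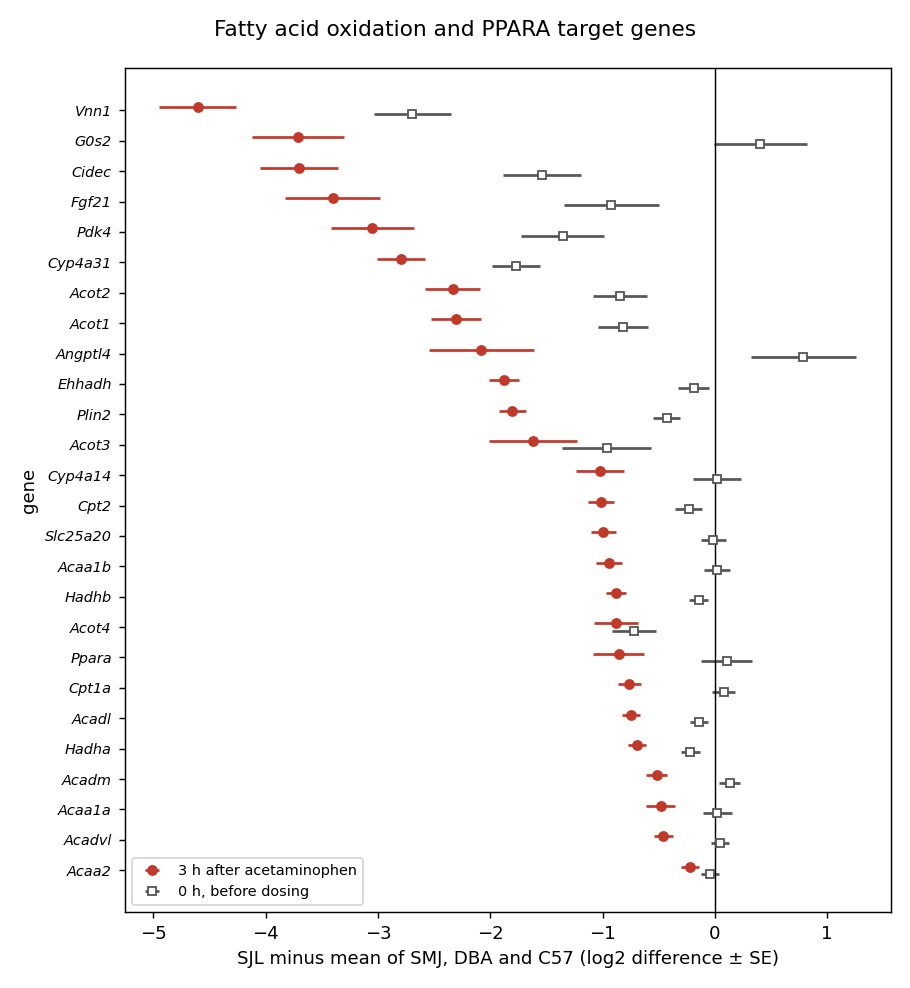
Log2 difference between SJL and the mean of SMJ, DBA and C57 for the 26 tested genes of fatty acid oxidation and PPARA targets, at 3 h (filled circles) and 0 h (open squares), with the SE of the fit. At 3 h all 26 lie below 0, from -4.60 for Vnn1 to -0.22 for Acaa2. At 0 h most lie near 0, and Vnn1 at -2.70 is the lowest.

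Genes of glucose output and bile handling were lower in part. In the glucose list 5 of 15 genes were lower (G6pc, Pck1, Pcx, Irs1 and Gys2), against 8.88% of all genes. In it 1, Gckr, was higher, against 8.59%. G6pc, the catalytic subunit of glucose-6-phosphatase, had 382, 1117 and 2434 in SJL39, SJL40 and SJL42, and between 3647 and 7429.5, with a median of 4676, in the other 9 livers. All SJL livers were below the others, although they spread widely among themselves, and the difference was -2.27 ± 0.32 (SE; limma adjusted p = 1.13e-05), against 0.60 at 0 h. Pck1, which makes phosphoenolpyruvate, and Pcx, which makes oxaloacetate, differed by -0.76 and -0.62, again with no overlap. Group weights or the 12 arrays alone left 3 genes of this list lower and none higher, and the call for Gckr was also lost without SJL39 or SJL42. Fbp1, fructose bisphosphatase of the same pathway, differed by 0.04 and was not called.

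In the bile acid list 5 of 17 genes were lower (8.88% of all genes) and 3 higher (8.59%). At 0 h 4 were higher (6.27%) and 1 lower (5.81%). With group weights or with the 12 arrays alone 4 were lower and 1 higher at 3 h. Abcb4, the phospholipid exporter of the bile canaliculus, had 1199, 2144 and 2395 in SJL and between 4203 and 5636, with a median of 4598 in the others, 2.60-fold lower without overlap (limma adjusted p = 3.69e-08). Nr1h4, the bile acid receptor FXR, had 341, 447 and 682 in SJL and between 762 and 1022, with a median of 921 elsewhere, and Cyp8b1, which makes cholic acid, differed by -0.73. Abcc2, which exports conjugates into bile, differed by -1.40 and was lower at 0 h too (-0.86). Slc51b, a basolateral bile acid exporter, and Akr1d1, a reductase of bile acid synthesis, were higher at both times, and Abcb11, the bile salt export pump, was higher at 3 h, a call lost without SJL39.

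Chemokines, adhesion molecules and feedback regulators of NF-κB were higher in SJL. All 30 genes written in this list were tested, 14 were higher (8.59% of all genes), 1 was lower, and 25 differences were above 0, with a median of 1.04. At 0 h the median was 0.02, with 1 gene higher (6.27% of all genes). At 6 h it was -0.11, with 1 higher (6.27%) and 1 lower (4.66%). The test between 0 h and 3 h called 5 of the 30 upward (2.21% of all genes) and 1 downward (2.4%), so most of the 14 did not pass it. All 3 SJL livers lay above all 9 others in 5 of the 14: Icam1, Selp, Il1r1, Ccl7 and Nfkbia. Over all genes, 3.71% lay so. In 11 of the 14, SJL39 was the highest of the SJL livers, and without it the count was 9, against 13 without SJL40 and 17 without SJL42. Group weights left 8 and the 12 arrays alone 11. The calls for Cxcl13, Nfkbiz and Ccl2 were lost without SJL39.

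Windows around the transcription start, from 250 bases before to 50 after it, were read from the RefSeq promoter table (GRCm38.p6) for 4 of these genes. They are shown because NF-κB is a textbook regulator of all 4, and capitals mark matches to GGAATTTCC, 1 form of the κB motif, on either strand. Genes and motif were chosen with the values known.
Cxcl1 chr5:90890995-90891294 (+): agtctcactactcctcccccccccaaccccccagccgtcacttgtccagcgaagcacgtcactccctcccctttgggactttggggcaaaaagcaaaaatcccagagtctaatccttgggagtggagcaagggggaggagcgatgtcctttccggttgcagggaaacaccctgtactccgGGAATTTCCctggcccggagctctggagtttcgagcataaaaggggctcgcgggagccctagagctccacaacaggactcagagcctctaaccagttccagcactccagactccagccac
Icam1 chr9:21015690-21015989 (+): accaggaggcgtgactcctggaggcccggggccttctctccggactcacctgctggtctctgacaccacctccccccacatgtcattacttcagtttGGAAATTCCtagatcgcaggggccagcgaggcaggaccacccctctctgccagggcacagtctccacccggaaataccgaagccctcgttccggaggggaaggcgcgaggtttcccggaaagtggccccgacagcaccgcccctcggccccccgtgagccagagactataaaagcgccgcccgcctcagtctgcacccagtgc
Nfkbia chr12:55492598-55492897 (-): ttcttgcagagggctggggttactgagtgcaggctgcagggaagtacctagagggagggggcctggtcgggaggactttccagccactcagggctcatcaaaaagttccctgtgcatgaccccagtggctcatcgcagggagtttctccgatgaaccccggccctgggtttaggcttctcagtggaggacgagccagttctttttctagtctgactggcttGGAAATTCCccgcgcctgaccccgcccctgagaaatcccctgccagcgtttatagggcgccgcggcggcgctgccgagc
Tnfaip3 chr10:19015361-19015660 (-): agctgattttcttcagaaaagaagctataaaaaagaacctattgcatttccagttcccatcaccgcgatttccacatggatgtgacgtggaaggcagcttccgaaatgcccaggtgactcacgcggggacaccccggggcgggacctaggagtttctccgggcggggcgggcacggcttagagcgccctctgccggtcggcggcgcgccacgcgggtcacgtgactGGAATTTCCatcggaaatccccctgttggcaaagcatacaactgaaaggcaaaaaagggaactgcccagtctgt
Each sequence runs 5′ to 3′ on the strand of its gene. Each of the 4 holds 1 match, on the strand of the gene in Cxcl1 and Tnfaip3 and on the opposite strand, where it reads GGAAATTCC, in Icam1 and Nfkbia. Of 27025 genes with a window, 0.381% hold a match. Of the 30 genes of the list 23 have a window, and 6 of these hold a match: the 4 shown, which were called higher, and Cxcl2 and Cxcl10, which were not called. The letters AGGTCAAAG, the start of 1 form of the direct repeat that PPARA binds, are in 0.488% of genes on either strand and in none of the windows of 21 fatty acid oxidation genes, which says only that these letters are not in these windows. A match is a description and not a site of binding.

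Cxcl1, which draws in neutrophils, had signals of 7553, 5082 and 2089.6 in SJL39, SJL40 and SJL42, and between 51.9 and 3488, with a median of 261, in the other 9 livers. The liver SMJ98 exceeded SJL42, and the 8 remaining livers were lower than all 3 of SJL. The level was 11.8-fold higher than the mean of the other strains (difference 3.56 ± 0.78, SE; limma adjusted p = 0.00168). Against SMJ or DBA alone the difference was 2.16 or 2.61 and was not called, and against C57 it was 5.91. At 0 h SJL had 53.2, 64.4 and 62.6, a difference of -0.78, and at 6 h the difference was 0.30. The DBA livers spread widely at 0 h, with 808 ± 1234 (SD, n = 3). The monocyte chemokines Ccl2 and Ccl7 differed by 2.37 and 2.38, and Ccl3 by 2.35. For Cxcl2, a close relative of Cxcl1, the difference was -0.22, not called, and for Cxcl10 it was 1.59, also not called, with 1373, 81.3 and 56.7 in the 3 SJL livers.

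Adhesion molecules of the vessel wall were higher in the same livers. Icam1, to which leukocytes bind, had 2606, 943 and 328 in SJL and between 107 and 244, with a median of 139 in the other livers, 6.37-fold higher (limma adjusted p = 6.79e-06). SJL39 lay far above SJL42, and still every SJL liver exceeded all 9 others. Selp and Sele, the P- and E-selectins, differed by 1.77 and 2.32, while Vcam1 differed by 0.23 and was not called. Sele signals were low, 97.7, 31 and 14.4 in SJL and at most 26.0 elsewhere.

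Cytokines and their receptors were mixed. Il1b had 231.4, 474 and 158.2 in SJL and between 4.41 and 239, with a median of 84.3, in the others, an overlapping range with a difference of 1.87 whose limma adjusted p was 0.0247, and 0.153 with group weights. Il1r1, the receptor for this cytokine, had 1817, 1196 and 841 in SJL and at most 814 elsewhere. Tnf and Il6 differed by 1.13 and 0.50, and neither was called. Cxcl14, a chemokine made by epithelia, was the gene called lower (-1.55).

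Inducible regulators of NF-κB and STAT signalling were among the higher genes. Nfkbia, which holds NF-κB in the cytoplasm, had 5256, 3727 and 3323 in SJL and between 1877 and 2913, with a median of 2395 elsewhere, 1.73-fold higher with no overlap (limma adjusted p = 0.000527). Tnfaip3, a ubiquitin-editing inhibitor of NF-κB, had 1017, 410.0 and 95.7 in SJL and between 44 and 244, with a median of 57.3, in the others, 5.21-fold higher. SJL42 lay inside the range of the others for Tnfaip3 through SMJ98. Bcl3, a nuclear IκB protein, had 1729, 1582 and 529 in SJL and at most 483 elsewhere, a difference of 2.63. Tlr2, a receptor for bacterial lipoproteins, had 1589.9, 135 and 77.7 in SJL and at most 69.5 elsewhere, so that its 6.47-fold difference came largely from SJL39. Nfkbiz, another nuclear IκB protein, differed by 1.04. Tifa, an adaptor of TRAF6, and Fpr2, a receptor for formylated peptides, differed by 2.73 and 2.62.

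Socs3 and Cish, both feedback inhibitors of cytokine receptors, were higher too. Socs3 had 696, 1342 and 1008 in SJL and between 107 and 982, with a median of 317 elsewhere, with SMJ98 inside the SJL range and a difference of 1.74. Cish, which growth hormone induces through STAT5, changed sides between the times. It had 675, 1669.8 and 692 at 3 h in SJL, and between 236.1 and 430.5, with a median of 268, in the other 9 livers, a difference of 1.69 ± 0.23 (SE; limma adjusted p = 7.53e-06). At 0 h its SJL signals were 96.9, 77.9 and 77.8, a difference of -1.39 (limma adjusted p = 0.00018), and at 6 h the difference was 0.03.

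**Figure D4:**
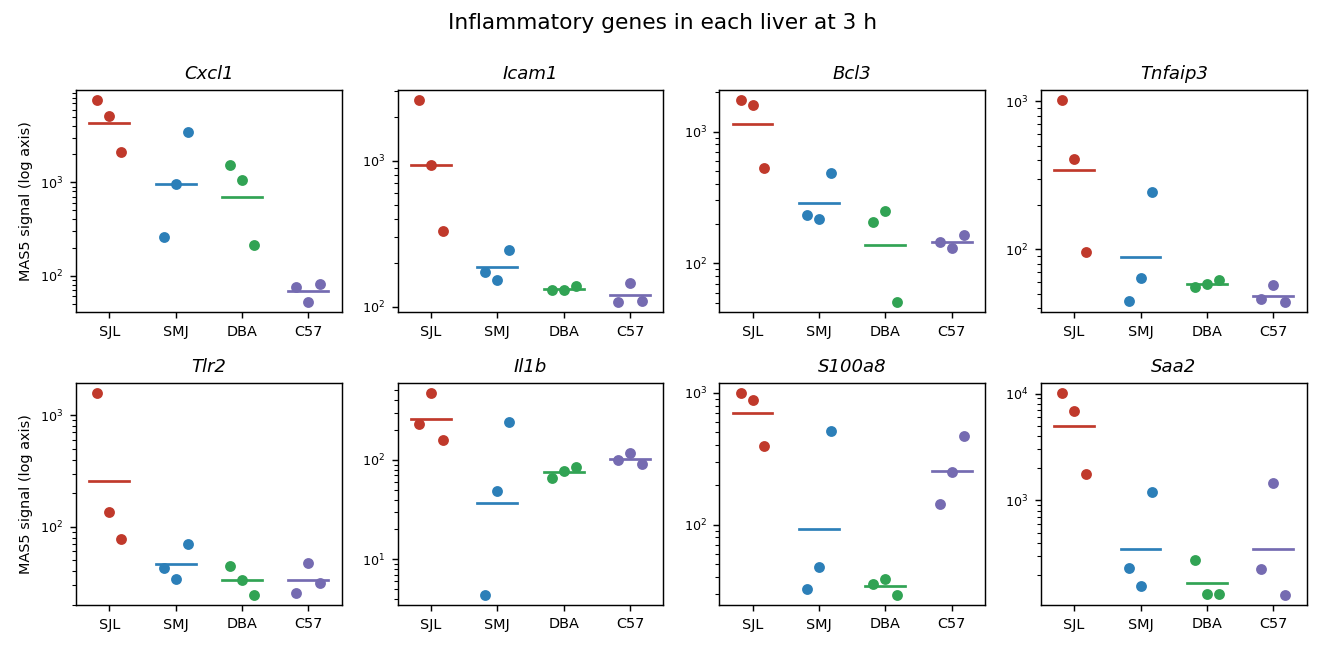
MAS5 signal (log axis) of 8 inflammatory genes in each of the 12 livers at 3 h, by strain, with bars at the mean of the log2 values. In Icam1, Bcl3, Tlr2 and Saa2 all SJL livers lie above all others, and SJL39 is the highest liver in every panel except that of Il1b. SMJ98 is the highest SMJ liver in all 8 panels.

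Acute phase proteins were higher in part, some of them already before dosing. Of 23 genes 10 were higher (8.59% of all genes), none lower, and the median was 0.54. At 0 h the median was 0.42, with 6 higher (6.27% of all genes). Without SJL39 or SJL40 the count was 6, and without SJL42 it was 12. Group weights left 6 and the 12 arrays alone 7, and 2 passed the test between the times. Saa2, a serum amyloid, had 10171, 6795 and 1776 in SJL and between 131 and 1470.3, with a median of 227 elsewhere at 3 h, and 4221, 10541 and 7741 in SJL before dosing. Its differences were 3.94, 4.15 and 4.17 at 0 h, 3 h and 6 h. The other strains were not uniformly low before dosing, as Saa2 in C57 at 0 h was 4435 ± 6520 (SD, n = 3). Lbp, which binds lipopolysaccharide, was likewise higher at all 3 times, with 1.21, 1.24 and 1.46. Steap4, a metalloreductase, had 7758, 2492 and 675 in SJL and at most 717 elsewhere, just above SJL42, with a difference of -0.54 at 0 h that was not called and 2.33 at 3 h. Saa3 had 6161, 751 and 136 and lost its call without SJL39. The abundant plasma proteins Fga, Fgb, Fgg, Hp and Hpx differed by between -0.07 and 0.13, and none was called. Probe sets of Saa1 and Saa2, near-identical copies, may bind each other's RNA.

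Some neutrophil markers were higher in the same livers. Of 11 tested, 4 were higher (S100a8, S100a9, Ngp and Clec4d), against 8.59% of all genes, none lower, and the median of the 11 was 1.18. Against SMJ alone 2 were higher (5.44% of all genes), against DBA 3 (8.58%) and against C57 none (8.83%). The count of 4 became 2 without SJL39 or without SJL40, 1 with group weights and 3 with the 12 arrays alone. The limma test between the times called none of the 11, against 2.21% of all genes upward. At an unadjusted p under 0.05, 2 were upward, against 2592 of all 13981 genes in either direction. The summed signal of the 11 was 1070, 2326 and 2503 in the 3 SJL livers in order of size, between 192 and 1339 in the other 9, and between 434 and 955 in SJL at 0 h. S100a8, a calcium-binding protein of neutrophil granules, had 1000.2, 881 and 394 in SJL, and between 29.4 and 508, with a median of 47.8, in the others, with SMJ98 and the 3 C57 livers the highest of these. Granule genes Ltf and Mmp8 differed by 0.25 and 0.84, and neither was called. The part of neutrophils in the inflammatory differences was not tested. S100a8 and Ngp were already higher at 0 h (1.98 and 1.51). In the macrophage list 4 of 17 markers were higher at 3 h (8.59% of all genes), against 10 at 0 h (6.27%), and the median was 0.07 against 0.60. Its calls at 3 h, Marco, Msr1, Lyz2 and Cd68, were all lost with group weights and with the 12 arrays alone.

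Markers of other cells gave few calls at 3 h, when 8.59% of all genes were higher and 8.88% lower. None of 9 lymphocyte or 7 bile duct markers was called. At an unadjusted limma p under 0.05 the counts were 0 and 1, the 1 being Krt19 (0.94), against 4124 of all 13981 genes. Of 14 endothelial markers 1, Pecam1, was lower, as at 0 h, and of 15 stellate and fibroblast markers 1, Lrat, which stores retinol as ester, was lower, a call lost without SJL39. Of 16 pericentral hepatocyte markers 2 were higher and 1 lower, and of 10 periportal ones 2 were higher and 1 lower, with medians of 0.05 and -0.01. Of 13 secreted hepatocyte proteins 2, Apob and Fabp1, were lower, and 12 of the 13 differences were below 0, with a median of -0.14. This shift depended on the scaling. With quantile normalization the median was 0.01, with 1 protein called higher and 1 lower. In the signals as deposited all 13 were above 0 at 0 h, with a median of 0.27. The limma test between the times called 2 of the 13 downward (2.4% of all genes), and 11 were downward at an unadjusted p under 0.05. Of all 13981 genes, 2592 were under that p in either direction. The median change of the 13 was -0.45, against -0.02 over all genes, -0.55 for stellate, -0.45 for macrophage and -0.33 for periportal markers. Only neutrophil (1.01) and bile duct (0.40) markers had a median change above 0. Fabp1, a fatty acid binding protein that PPARA also induces, differed by -0.79. With group weights 1 pericentral marker was lower and none higher, 1 periportal marker was higher and 1 lower, and 1 secreted protein was lower. The 12 arrays alone called none of the secreted proteins or stellate markers. Without SJL39, no pericentral marker was higher and 2 endothelial ones were. Of 5 erythroid markers Klf1 was higher and Alas2 lower.

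Most of the largest differences at 3 h were also called before dosing. Gstp3, a pi-class glutathione transferase on chromosome 19, had 6564, 7036 and 9640.0 in SJL and between 105 and 209, with a median of 133 in the other livers, 53.1-fold higher (limma adjusted p = 2.13e-22). Its SJL mean was 8699 ± 555 at 0 h, 7747 ± 1657 at 3 h and 8184 ± 859 at 6 h (SD, n = 3 each), and the difference stayed between 5.51 and 5.78. Hsd17b13, a lipid droplet enzyme on chromosome 5, had 72.5, 189 and 200.3 in SJL and between 5951 and 9725, with a median of 7215 elsewhere, 51.8-fold lower, with differences of -4.75 at 0 h and -4.93 at 6 h. A second probe set of this gene had a difference of the opposite sign. Trim6, a ubiquitin ligase, had 164, 167 and 118 in SJL and at most 45.2 elsewhere, and Tcf24, Igsf23 and Ildr2 were likewise higher at all 3 times, by 2.97, 2.72 and 2.54 at 3 h. Cyp2c37, a P450 enzyme, split the strains another way. It had 47.1, 22.6 and 47.8 in SJL, 9.13, 14.2 and 19.2 in SMJ, and 3413 to 4481 in DBA and C57. Corin, a protease, was high in SJL and DBA, and Obp2a, an odorant-binding protein, was low in SJL and C57. The array reads each strain's RNA with the same probes, so a difference that stands at all 3 times may lie in the RNA level or in the probed sequence, which cannot be told apart here.

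Dio1, the type 1 deiodinase that makes active thyroid hormone, combined a standing difference with a 3 h one. It had 18.4, 40.8 and 42.3 in SJL and between 1849.5 and 2565, with a median of 2419.6 in the other 9 livers, the largest difference of any gene tested, at -6.05 ± 0.18 (SE; 66.2-fold lower; limma adjusted p = 6.5e-19). Its SJL mean was 237.4 ± 28.2 at 0 h, 33.8 ± 13.4 at 3 h and 237.1 ± 48.5 at 6 h (SD, n = 3 each), while the means of the other strains lay between 1621 and 2466. The SJL signals at 3 h lay near 30.8, the median of all values. The difference at 3 h minus that at 0 h was -2.83 (limma adjusted p = 4.29e-07). Mfsd2a, which carries lysophospholipids with polyunsaturated chains, had 72.5, 283 and 662 in SJL and between 1585 and 4132, with a median of 3404, in the others, 12.1-fold lower, with no call at 0 h (-0.75). Serpina9, a serine protease inhibitor, had 111, 138 and 61.1 in SJL and at most 30.0 elsewhere, a difference of 2.93 against -0.97 at 0 h. Aqp4, a water channel, had dim signals of 19.2, 0.94 and 1.74 in SJL and between 15.4 and 214, with a median of 94.0 elsewhere, and was lower at 0 h, 3 h and 6 h. Ccdc122, Rarres1, Rab30 and Cyp17a1, a steroid 17α-hydroxylase, were lower at all 3 times, by -3.73, -4.30, -3.54 and -4.52 at 3 h. Btg2, an antiproliferative p53 target, had 147, 241 and 268 in SJL and between 1937 and 5912, with a median of 4306 elsewhere. In SJL it stood at 47.6 ± 3.60 before dosing and in SMJ, DBA and C57 at 692 ± 654, 174 ± 19.3 and 530.3 ± 189, and the 3 h means were above these in all 4 strains. The call came from 1 of its 2 probe sets.

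**Figure D5:**
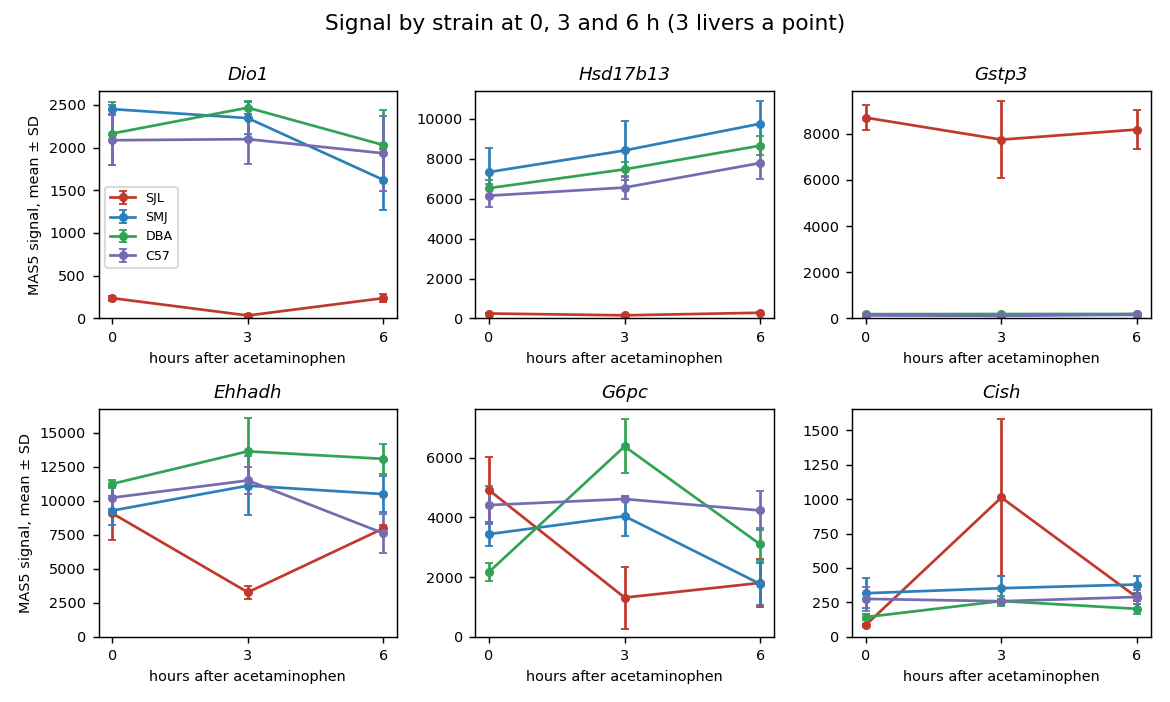
Mean MAS5 signal ± SD of 3 livers per strain at 0 h, 3 h and 6 h for 6 genes, on linear axes from 0. Hsd17b13 and Gstp3 keep SJL apart from the other strains at all times, while Dio1 adds a dip at 3 h to a standing difference. Ehhadh and G6pc are low in SJL at 3 h, and Cish is high in SJL at 3 h.

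Few genes changed sides between 0 h and 3 h. There were 27 genes higher at 3 h and lower at 0 h, and 20 lower at 3 h and higher at 0 h. Beside Cish, they include Serpina7, the thyroxine-binding globulin, which had 511, 52.5 and 59.0 in SJL at 3 h and at most 51.6 elsewhere, with SJL39 far above SJL40 and SJL42. At 3 h it differed by 5.04 from SMJ alone, and by 1.39 from DBA and 2.01 from C57, neither called. Its differences from the mean of the other strains were 2.81 at 3 h and -2.18 at 0 h. The splicing factor Sfpq and the transcription factor Cebpg went the same way, by 0.95 and 0.88 at 3 h and -0.78 and -0.50 at 0 h. For Sfpq 1 of 6 probe sets and for Cebpg 1 of 3 was called higher. Slc25a25, a mitochondrial carrier, went the other way, by -0.90 and 0.63. Bhmt, betaine-homocysteine methyltransferase, was also higher at 0 h (0.38) and lower at 3 h (-0.37), the second a call that was lost with group weights (limma adjusted p = 0.221).

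Genes that handle acetaminophen and glutathione were called in both directions at 3 h, when 8.59% of all genes were higher and 8.88% lower. Cyp2e1, the main bioactivating enzyme, had 13254, 14442 and 15919 in SJL and between 12552 and 21432, with a median of 18711 in the others, a difference of -0.24 ± 0.17 (SE) that was not called (limma adjusted p = 0.397). In its list of 13 genes 3 were lower (Abcc2, Cyp3a13 and Ugt2b1) and none higher, and 11 of the 13 differences were below 0, with a median of -0.28. Group weights left 1 of these calls. Among 20 NRF2 targets 4 were higher and 1 lower, at a median of 0.11, against 2 and 0 without SJL42 or with the 12 arrays alone and 1 and 0 with group weights. Gclm, the modifier subunit of the enzyme that starts glutathione synthesis, had 2108, 2873 and 2651 in SJL and between 1331 and 2018, with a median of 1804 in the others, 1.46-fold higher, as at 0 h (0.42). Its catalytic partner Gclc differed by -0.10, Nqo1 by -0.03 and Hmox1 by 0.38, none called. Txnrd1, thioredoxin reductase, was higher by 0.55, and Tkt, a transketolase, was called higher but turned below 0 (-0.37) when all its probe sets were averaged. Besides Gstp3, which was not in it, the list of 19 glutathione transferases had 4 genes higher and 3 lower at a median of 0.27. It had 2 and 1 without SJL39 or without SJL42, 6 and 0 without SJL40, 3 and 0 with group weights and 1 and 0 with the 12 arrays alone. Gstk1 at 0.76 was higher at 0 h too.

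In the methionine cycle 2 of 17 genes were higher and 3 lower (1 without SJL40 or with group weights), against 8.59% and 8.88% of all genes. The median was -0.05, against 0.31 at 0 h. Bhmt2, which methylates homocysteine with S-methylmethionine, had 958, 799.9 and 1030.5 in SJL and between 1056 and 2048, with a median of 1590.3 in the others, lower in every SJL liver (difference -0.71 ± 0.16, SE; limma adjusted p = 0.00219). At 0 h its difference was 0.26 and at 6 h 0.24, neither called, and the difference at 3 h was below that at 0 h (limma adjusted p = 0.0121). Cbs, which joins homocysteine to serine on the way to cysteine, was higher at 3 h by 1.00 and at 0 h by 0.66. Pemt, which makes phosphatidylcholine, was higher at both times as well.

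Stress genes gave scattered calls in both directions, to be read against 8.59% of all genes higher and 8.88% lower at 3 h. Of 19 heat shock genes 3 were lower at 3 h, against 9 at 0 h (5.81% of all genes), and the median was -0.14 against -0.74. The 3 h count was 1 without SJL39, without SJL40 or with group weights. Hspa1a had 22, 274 and 1285 in the 3 SJL livers, a spread as wide as that of the other 9 (38.9 to 1206). The list of the unfolded protein and integrated stress responses had 20 genes, and 3 were higher, among them Trib3 (1.44), and 5 lower, among them Atf5 (-1.05) and Creld2 (-1.32). Group weights left 1 higher and 2 lower, and the 12 arrays alone 1 and 3. Atf3 had 1844, 4499.6 and 5489 in SJL and between 944 and 2522, with a median of 1829.5 in the others, a difference of 1.17 not called in the shared fit (limma adjusted p = 0.0991) but called with the 12 arrays alone (0.0239). Of 25 immediate early genes 2 were higher and 4 lower. This balance turned on single livers, with 5 higher and 2 lower without SJL39 and 0 and 8 without SJL42, and group weights left 0 and 1. It also turned on the strain compared. Against SMJ 0 were higher (5.44% of all genes) and 3 lower (6.41%), and against DBA 3 higher (8.58%) and 3 lower (8.11%). Against C57 8 were higher (8.83%) and 1 lower (8.61%). Of 14 p53 targets 3 were lower, including Cdkn1a (246, 1851 and 1871 in SJL), whose call was lost without SJL39. For these targets 1 was higher and 1 lower without SJL39, and 1 was lower with group weights or with the 12 arrays alone.

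Lipid synthesis set the 3 SJL livers against each other. In the cholesterol list, 18 of 19 differences were above 0, with a median of 0.57, but only Insig1 and Fdft1 were called (8.59% of all genes higher). Hmgcs1, an early enzyme of the pathway, had 6737, 776 and 1609 in SJL39, SJL40 and SJL42, and between 557 and 2136, with a median of 1606, in the others, a difference of 0.76 that was not called. Sqle had 862, 75.3 and 97.7 and Idi1 3261, 139 and 228 in the same order. The count was 0 without SJL39, 14 without SJL40 and 4 without SJL42, so this list rests on SJL39. Against SMJ alone 15 of the 19 genes were higher (5.44% of all genes), with a median of 1.44. Against DBA 1 of 19 was higher (8.58%) and against C57 3 of 19 (8.83%), with medians of 0.04 and 0.58. In fatty acid synthesis 5 of 18 genes were higher (8.59% of all genes) and 4 lower (8.88%). The counts were 3 and 3 without SJL42, with group weights or with the 12 arrays alone. The higher ones were Srebf1 and Mlxipl, the transcription factors of lipogenesis, Thrsp, Acly and Dgat2, and the lower ones Elovl5, Fads2, Acacb and Insig2. Mlxipl had 1687, 2577 and 2204 in SJL and at most 1502 elsewhere, and Elovl5, which lengthens polyunsaturated chains, differed by -1.02.

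The counts of the remaining lists at 3 h stand against 8.59% of all genes higher and 8.88% lower. Cyp2c enzymes had 5 of 11 genes higher and 2 lower. Cyp2c70, which makes muricholic acids, had 9490.2, 7309 and 6145 in SJL and at most 4961 elsewhere, a difference of 1.87 against 0.31 at 0 h. Cyp2c39 and Cyp2c23 were higher at 0 h and 3 h alike. Metallothioneins and iron genes had 3 of 15 higher, with Slc39a14, a zinc and iron importer, at 1.51. Clock genes had 3 of 18 higher and 2 lower, with Npas2 among the lower at -2.28. Complement had 4 of 20 higher, against 12 at 0 h (6.27% of all genes), and 1 lower. Interferon-stimulated genes had 4 of 26 higher and 2 lower, which became 1 and 9 without SJL39, and Irf1 lay above all other livers in each SJL liver (1.34). Their direction depended on the strain compared. Against SMJ 4 were higher (5.44% of all genes) and 0 lower (6.41%), and against DBA 0 higher (8.58%) and 10 lower (8.11%). Against C57 3 were higher (8.83%) and 1 lower (8.61%). Antigen presentation genes had 2 of 14 higher and 1 lower, sex- and growth-hormone-dependent genes 2 of 13 higher and 3 lower, and small ribosomal proteins 4 of 18 higher, of which Rps9 turned below 0 (-0.58) when all probe sets of the gene were averaged. The same averaging turned H2-D1, one of the 2 antigen presentation genes, to -0.76. With group weights the higher and lower counts of these lists were 3 and 1 for Cyp2c enzymes, 2 and 0 for metallothioneins and iron genes, 1 and 2 for clock genes, 2 and 1 for complement and 1 and 0 for interferon-stimulated genes. They were 0 and 0 for antigen presentation, 2 and 2 for sex- and growth-hormone-dependent genes and 0 and 0 for small ribosomal proteins. Without SJL39 there were 3 lower complement genes, 5 lower sex- and growth-hormone-dependent genes and no call in antigen presentation, and without SJL40 there was 1 higher ribosomal gene.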

How the data were processed

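Total liver RNA of 36 mice was hybridised to 1-colour Affymetrix arrays, 1 array per mouse. The deposited values are linear intensity signals per probe set from MAS5, per the submitters' processing notes. The MAS5 version is not given in the sources used here. After leaving out 2% of values at each end, every array had a mean of 150, so the arrays had been scaled to a common level and a shift of all genes could not be seen. They were not scaled again. Precision is limited by the number of arrays.

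Of 45101 probe sets, 34945 carried 1 gene name in GEO's platform annotation, 932 several and 9160 none, and 64 were controls. Each of 18194 genes was read from the probe set with the highest mean log2 signal, passing over those whose names mark shared sequence where another existed. Genes with at least 3 arrays above 30.8, the median of all values, were kept, which left 13981. The 12 group means were fitted to log2(signal + 2.77), the offset being the 10th percentile of all values, with limma 3.58.1 in R 4.3.3 (lmFit and eBayes) and p-values adjusted by Benjamini and Hochberg. A log2 difference with an offset understates the change of dim genes. The fit was also run on simulated data in which every group had the same spread. The wider spread of SJL at 3 h was not part of that run, which therefore cannot speak for the counts of the shared fit.

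Genes named were the 10 with the widest difference each way among called genes outside the range of the others, up to 8 each way with a call in the same direction between the times, 5 each way called at 0 h too, 5 of opposite sign at 0 h, in each list the 4 genes of lowest p, and 10 genes fixed by name. Other list members are given where their list is described. The members and lists were chosen with earlier results of these data known. Promoter windows came from RefSeq (GRCm38.p6). Alternatives covered the offset, the filter, the scaling, the arrays fitted, group weights, the eBayes prior, the probe set chosen and leaving out each array.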

Additional observations from a re-analysis of the deposited data

Results flagged for a closer look

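The strain difference at 3 h differed from that at 0 h in 644 genes by the limma test of the difference between the times (adjusted p under 0.05). The values below are the 3 h difference minus the 0 h difference on the log2 scale, each from 6 SJL livers and 18 livers of the other strains, for the genes named by rule that passed this test.

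Among inflammatory and signalling genes the value was 4.34 for Cxcl1, 3.22 for Tlr2, 3.18 for Bcl3, 2.56 for Icam1, 2.63 for Fpr2 and 2.10 for Tifa. It was 2.87 for Steap4, 2.11 for Socs3, 3.08 for Cish, 1.55 for Irf1 and 1.42 for Slc39a14. The protease inhibitor family members Serpina7 and Serpina9 had 4.998 and 3.90. Smaller upward values were found for Cyp2c70 at 1.56, Trib3 at 1.16, Sfpq at 1.73, Cebpg at 1.38, Rps9 at 1.04, Jund at 0.90, Txnrd1 at 0.72 and Nr1d2 at 0.66.

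Among genes of lipid use the value was -4.12 for G0s2, -2.48 for Fgf21, -2.17 for Cidec, -1.91 for Vnn1, -1.69 for Ehhadh, -1.37 for Plin2 and -1.02 for Cyp4a31. It was -2.85 for Mfsd2a, -0.97 for Elovl5, -0.68 for Fads2, -0.93 for Aldh3a2, -0.90 for Fabp1 and -0.70 for Apob. In glucose output, G6pc had -2.87, Pck1 -0.88 and Pcx -0.95. In bile handling, Abcb4 had -1.14, Cyp8b1 -1.08 and Nr1h4 -0.76. Bhmt2 had -0.97 and Bhmt -0.74. The remaining downward values were -2.83 for Dio1, -1.97 for Aqp4, -1.52 for Slc25a25, -1.02 for Atf5 and -0.94 for Hsd17b13.

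Probe sets with no single gene name lie outside the comparisons of genes. Of 5063 of them that passed the same filter, 593 (11.7%) were past the threshold at 3 h, 300 higher and 293 lower in SJL.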

How the results depend on the processing

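The count of 2443 genes at 3 h was 1442 with the 12 arrays alone (658 higher, 784 lower) and 1113 with group weights (486 higher, 627 lower), and group weights gave 347 for the difference between the times. Fitting only the arrays of the groups compared left 31 higher and 51 lower genes against SMJ, 87 and 149 against DBA, 135 and 206 against C57, and 496 for SMJ, 774 for DBA and 776 for C57 against the mean of the other 3 strains. Group weights gave 375 higher and 474 lower against SMJ, 717 and 744 against DBA, and 791 higher against C57, and for SMJ, DBA and C57 against the mean of the other 3 they gave 1261, 2028 and 2154, all above the 1113 of SJL. The other settings (offset 1 or 16, no or a stricter filter, both scalings, the eBayes options and the mean of all probe sets) kept these counts within 1.5 times. Without 1 array the counts ran from 1985 to 2506 at 3 h (888 to 1237 higher, 1077 to 1269 lower), from 992 to 1950 at 0 h, from 410 to 920 between the times and from 873 to 1782 at 6 h. The higher and lower genes ran from 442 to 781 and 555 to 924 against SMJ, 886 to 1463 and 860 to 1163 against DBA, and 898 to 1260 and 905 to 1225 against C57. The lowest counts against SMJ were without SMJ95. Totals ran from 623 to 1540 for SMJ, 1075 to 2250 for DBA and 939 to 1866 for C57 against the mean of the other 3. Of the totals lower by more than 1.5 times, SMJ had 623 and 760 without SMJ95 and SMJ96, DBA 1115 and 1075 without DBA158 and DBA159, and C57 1078, 991 and 939 without C57226, C57230 and C57231. When all probe sets of a gene were averaged, Rps9 turned to -0.58, H2-D1 to -0.76 and Tkt to -0.37. Among the named genes, group weights ended 42 calls and the 12 arrays alone 29. No paired analysis was possible because every mouse has its own number and no number is shared between groups. The cause of these moves was not tested. The smaller fits change both the degrees of freedom and the groups that give the spread. Dim genes, near the offset of 2.77, have no reliable order.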
